A study of Mus musculus with 4 samples.

Results

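Neutrophils are described here in 4 single-cell RNA libraries of immune cells from the mouse brain, 3 of them from brains that carried a glioma and 1 from healthy brain. A cell barcode was taken as a neutrophil when it had at least 200 genes detected, no more than 10% mitochondrial UMIs, at least 10 UMIs of S100a8 and S100a9 together and at least 2 of Cxcr2, Retnlg and Csf3r together. It also had to hold no more than 1 UMI of the C1q genes, no more than 1 of Csf1r and 0 of the Cd3 genes, which keeps out macrophages, microglia and T cells. The rule took 510 of the 8572 barcodes that passed the quality limits, out of 8694 deposited. It found 33 neutrophil barcodes of 1444 in the IgG library, 41 of 1853 in the anti-CTLA-4 library, 299 of 3875 in the library with anti-CTLA-4 plus CD4 depletion (called the depletion library below) and 137 of 1400 in healthy brain.

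All animals are labelled as C57BL/6 mice. For the tumor libraries, cells of the glioma-005 line were injected into the hippocampus of C57BL/6J mice aged 8 to 12 weeks, antibodies were given from day 7 on, and brains were taken at day 35 after perfusion with PBS. The IgG group received isotype antibody of rat clone LTF-2, the anti-CTLA-4 group received hamster clone 9H10, and the depletion group received clone 9H10 and the CD4-depleting clone GK1.5. Each tumor library pooled 3 tumors into 1 library, and the age of the healthy animals and how many of their brains were pooled are not given in the sources used here. Microglia, CD45-high CD11b+ cells, CD3+ cells and the remaining CD45-high cells were sorted as separate fractions and mixed at equal ratios, so the share of neutrophils in a library is not their share of the tissue.

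Neutrophils are short-lived phagocytes made in the bone marrow, where their granules are filled in sequence: primary granules in promyelocytes, secondary granules with lactoferrin and cathelicidin in myelocytes, then gelatinase granules and secretory vesicles. The granule genes are largely switched off before the cells enter blood, so granule transcripts mark young cells and receptors such as Cxcr2 mark mature ones. In tissue, neutrophils respond to interferons, to microbial and damage signals and to low oxygen, and they release chemokines and interleukin-1.

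Each group had 1 library, so no comparison has a replicate check and no test between groups could be made. Levels are in CPM, the UMIs of a gene per 1000000 UMIs of the neutrophil barcodes of that library. All intervals are exact 95% intervals that cover counting error only. A gene was tested for size where both libraries together had at least 30 of its UMIs and at least 10% of the neutrophil barcodes had it in the library where it was higher. It is called higher or lower where the CPM ratio was at least 2-fold. A gene that is tested only because it is high in 1 library is likely to be called, so a count of genes on a list is read against the share of all tested genes called in the same comparison.

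The neutrophil barcodes held 86555 UMIs in the IgG library, 118036 in the anti-CTLA-4 library, 746793 in the depletion library and 632930 in healthy brain, with a median of 2372, 2573, 1943 and 3098 UMIs per barcode in that order. A count of 3 UMIs was worth 34.7, 25.4, 4.02 and 4.74 CPM in the same order, and low genes are therefore least certain in the IgG library. Pairs of libraries shared 0 to 6 barcode sequences and no neutrophil barcode. Healthy brain differed from the tumor libraries in sex-linked genes, with Xist at 497 CPM in IgG, 373 in anti-CTLA-4, 383 in depletion and 0 in healthy brain, and Ddx3y at 33.2 CPM in healthy brain alone. Sex and tumor therefore cannot be told apart in the comparisons with healthy brain, and sex-linked genes were left out of all counts.

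Neutrophils made up 2.29% of the IgG barcodes (1.58 to 3.19), 2.21% of the anti-CTLA-4 barcodes (1.59 to 2.99), 7.72% of the depletion barcodes (6.90 to 8.60) and 9.79% of the healthy brain barcodes (8.28 to 11.5). S100a8 and S100a9, which form calprotectin, gave 6.31% of the UMIs of IgG neutrophils, 6.06% in anti-CTLA-4, 8.97% in depletion and 31.7% in healthy brain. S100a8 alone stood at 31471 CPM in IgG, 30152 in anti-CTLA-4, 46215 in depletion and 153158 in healthy brain. The rule used these genes, so the values describe the selected barcodes and support nothing more. Near the limits, 18 barcodes had 10 to 14 calprotectin UMIs and 12 otherwise fitting ones had 5 to 9, while 57 had exactly 2 UMIs of Cxcr2, Retnlg and Csf3r and 84 had 1.

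The receptor for the growth factor G-CSF, Csf3r, had 2022 CPM in IgG, 1669 in anti-CTLA-4, 797 in depletion and 1182 in healthy brain. Cxcr2, the receptor that draws neutrophils from marrow to tissue, had 1721, 1296, 769 and 869 CPM in that order. Retnlg, which encodes the secreted resistin-like gamma, ran the other way, at 1155 CPM in IgG, 1432 in anti-CTLA-4, 6259 in depletion and 15343 in healthy brain. A Retnlg UMI was present in 24.2% of IgG, 34.1% of anti-CTLA-4, 51.5% of depletion and 96.4% of healthy brain neutrophils. The IgG and anti-CTLA-4 neutrophils thus met the rule mostly through Cxcr2 and Csf3r, and the healthy ones also through Retnlg.

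Markers of B cells, basophils and mast cells, which the rule did not use, were low or absent. The B cell list summed to 0 CPM in IgG, 8.47 in anti-CTLA-4, 36.2 in depletion and 3.16 in healthy brain. Of the 5 T cell markers the rule sets the 3 Cd3 genes to 0, and the other two, Cd8a and Cd4, had 0, 0, 4 and 1 UMIs together. All 5 basophil and mast cell markers were at 0 in the 4 libraries. The macrophage list of 9 genes, 4 of which the rule limits, reached 508, 280, 1401 and 153 CPM, with 5, 6, 8 and 6 members seen, against 38896, 30764, 37508 and 31360 CPM in C1q-rich barcodes of the same libraries. Apoe, the lipid carrier made by macrophages, gave most of it in the depletion library, where it stood at 1181 CPM. The microglia list of 8 genes reached 612, 457, 376 and 144 CPM. Barcodes with dendritic cell or monocyte markers are described with the MHC class II genes below.

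Ratios to healthy brain depend on the scaling, and calprotectin alone took 31.7% of the UMIs there. In IgG over healthy brain, 805 of 2435 genes tested (33.1%) were higher and 322 (13.2%) lower, with a median log2 ratio of 0.55. With anti-CTLA-4, 811 of 2568 genes (31.6%) were higher and 329 (12.8%) lower than in healthy brain. With depletion, 1294 of 3482 genes (37.2%) were higher and 400 (11.5%) lower. Leaving S100a8 and S100a9 out of the totals lowered all log2 ratios by 0.46, 0.46 and 0.42, and the splits became 456 higher and 504 lower in IgG, 485 and 553 in anti-CTLA-4, and 872 and 651 in depletion. Scaling by median-of-ratios size factors lowered them by 1.06, 0.84 and 0.67, with 207 higher and 872 lower, 300 and 768, and 671 and 841. A ratio of 4.18 in IgG, 3.57 in anti-CTLA-4 or 3.18 in depletion stays at or above 2 under both. Without the granule-rich barcodes described below, the shares of all tested genes were 26.3% higher and 16.5% lower in IgG, 24.7% and 16.2% in anti-CTLA-4, and 35.9% and 13.4% in depletion, with all-gene medians of 0.24, 0.21 and 0.56. The 3 tumor libraries were set against the same healthy library, so their differences from it are not independent.

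Secondary granule genes were lower in the neutrophils of every tumor library than in healthy brain. The list held Ltf, Camp, Ngp, Lcn2, Mmp8, Chil3, Cd177, Hp, Wfdc21, Ltb4r1, Anxa1 and Padi4, and its name does not cover every member strictly. Of these 12 genes, all tested, 11 were lower in IgG, 11 in anti-CTLA-4 and 10 in depletion, and none was higher. The shares of all genes lower were 13.2, 12.8 and 11.5%. The list's median log2 ratio was -3.97 in IgG, -4.96 in anti-CTLA-4 and -2.59 in depletion, against 0.55, 0.46 and 0.69 for all genes with at least 30 UMIs. Camp, the precursor of the antimicrobial cathelicidin peptide, had 0 CPM in IgG, 0 in anti-CTLA-4, 4.02 in depletion and 17293 in healthy brain. The healthy level came from 22.6% of the neutrophil barcodes. Ltf, the iron-binding protein lactoferrin, had 0 CPM in IgG, 25.4 in anti-CTLA-4, 8.03 in depletion and 4217 in healthy brain. Ngp, neutrophilic granule protein, had 0, 0, 415 and 17726 CPM. Camp and Ngp in B, T and C1q barcodes of healthy brain lay between 9.58 and 21.9 CPM, which gives the background from free RNA.

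The Ltf promoter is shown because C/EBP factors, C/EBP-epsilon among them, are known to drive secondary granule genes. It is the 250 bases before the RefSeq start (GRCm38.p6, chr9:111019042-111019291, plus strand), and capitals mark the single match to TTGCNNAA or its reverse TTNNGCAA, a C/EBP-type half-palindrome.
Ltf: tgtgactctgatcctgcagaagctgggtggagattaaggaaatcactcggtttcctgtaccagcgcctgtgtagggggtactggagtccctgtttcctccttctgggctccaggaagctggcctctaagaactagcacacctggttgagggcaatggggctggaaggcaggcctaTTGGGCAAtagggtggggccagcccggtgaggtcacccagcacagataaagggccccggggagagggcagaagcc
This motif was found in 5 of the 10 secondary granule genes with a window (50%), and in 2582 of 27025 windows of all genes (9.55%). The match is a description of these letters. Cebpe, which encodes C/EBP-epsilon, had 34.7 CPM in IgG, 16.9 in anti-CTLA-4, 37.5 in depletion and 243 in healthy brain, and was called lower in all 3 comparisons, though in none without granule-rich barcodes. Cebpb, the C/EBP factor of emergency granulopoiesis, went the other way, with 2207, 1669 and 3008 CPM against 532 in healthy brain. Its ratios to healthy brain were 4.14 (3.45 to 4.96) in IgG, 3.13 (2.62 to 3.75) in anti-CTLA-4 and 5.65 (5.04 to 6.35) in depletion, and without granule-rich barcodes the anti-CTLA-4 ratio no longer reached 2. The IgG and anti-CTLA-4 ratios lie under the 4.18 and 3.57 that stay at 2 under both other scalings, so those calls depend on the scaling.

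A group of granule-rich barcodes carried much of the healthy signal. In healthy brain 26 of 137 neutrophil barcodes had 10 or more UMIs of Camp, Ltf and Ngp, with a median of 9688 UMIs, against 2771 in the other 111. They held 296504 of the 632930 healthy UMIs, whereas the depletion library had 8 barcodes of 299 over this limit and the IgG and anti-CTLA-4 libraries had 0. Without those 8, the depletion library kept 2 of 3 Camp, 6 of 6 Ltf and 87 of 310 Ngp UMIs. The 8 thus met the limit mainly through Ngp. Without its 26, healthy brain kept 8 of 10945 Camp, 1 of 2669 Ltf and 22 of 11219 Ngp UMIs. These 26 barcodes had 290 CPM of Cxcr2, 118 of Csf3r, 0 of the interleukin-1 beta gene Il1b and 442 of Cebpe. The other 111 had 1379 CPM of Cxcr2, 2119 of Csf3r, 2479 of Il1b and 68.4 of Cebpe. Mitosis genes were also seen in healthy brain, with Mki67 at 53.7 CPM, Top2a at 63.2 and Ube2c at 90.1, and 7 healthy barcodes had 3 or more UMIs of Mki67, Top2a, Birc5, Ube2c and Stmn1 together, of which 2 were granule-rich. Primary granule genes Mpo, Elane and Ctsg were at 0 UMIs in all 4 libraries. Prtn3, the primary granule protease proteinase 3, had 92.4 CPM in IgG, 25.4 in anti-CTLA-4, 77.7 in depletion and 0 in healthy brain.

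**Figure D1:**
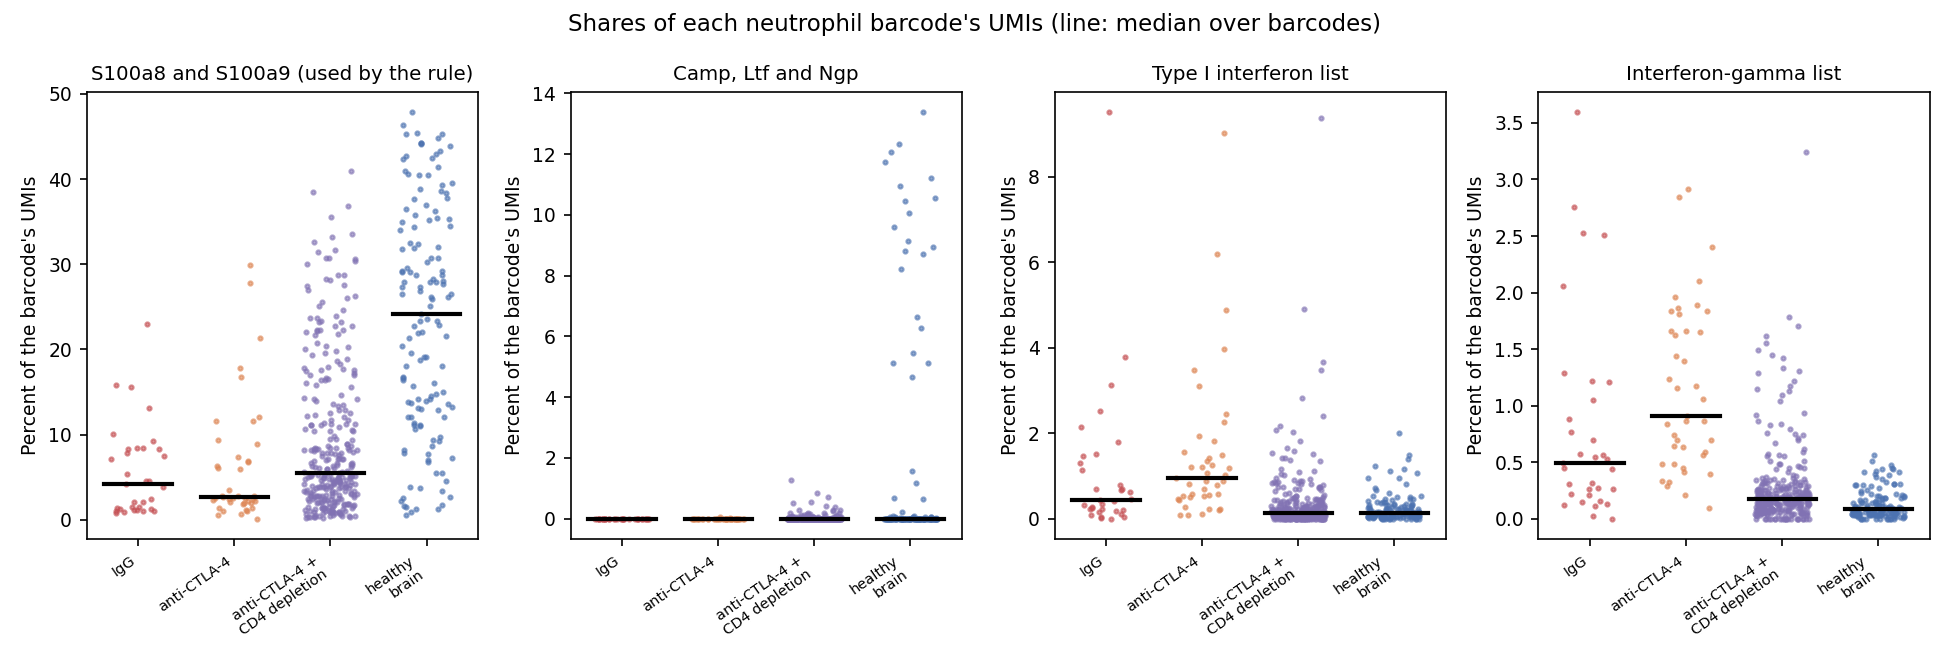
Each point is 1 neutrophil barcode and gives the percent of its UMIs from S100a8 and S100a9, from Camp, Ltf and Ngp, from the type I interferon list and from the interferon-gamma list, by library, with black lines at the medians. Camp, Ltf and Ngp reach 13.4% of UMIs in a healthy brain barcode and at most 1.27% in a tumor barcode, and the calprotectin medians are 4.19, 2.70, 5.53 and 24.2%.

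Without the granule-rich barcodes, a choice made after the values were seen, part of the difference from healthy brain remained. Camp, Ltf and Ngp chose the barcodes left out, so their own levels in the rest are fixed by that choice and the 3 genes are left out of the next counts. Of the 9 other secondary granule genes, 7 of 8 tested were lower in IgG, with a median log2 ratio of -1.88, and 7 of 8 in anti-CTLA-4, with -2.92. In depletion 4 of 9 were lower and 1 was higher, with a median of -0.46. The shares of all genes lower were then 16.5, 16.2 and 13.4%. Mmp8, the collagenase of secondary granules, had 34.7 CPM in IgG, 59.3 in anti-CTLA-4, 76.3 in depletion and 1757 in healthy brain, and the healthy level was 1011 CPM without granule-rich barcodes. Lyz2, the lysozyme gene, had 612, 407, 653 and 7977 CPM, and 3959 in the remaining healthy barcodes. Pglyrp1, which binds bacterial peptidoglycan, had 254, 271, 418 and 2359 CPM, and its ratios without granule-rich barcodes were 0.132 (0.0822 to 0.202), 0.141 (0.0956 to 0.201) and 0.180 (0.154 to 0.208). These 3 genes were therefore low in tumor neutrophils with either set of barcodes.

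Other genes lost much of the difference or turned round. Chil3, a chitinase-like granule protein, had 127 CPM in IgG, 16.9 in anti-CTLA-4, 782 in depletion and 2547 in healthy brain, and 53.5 CPM in the remaining healthy barcodes. Its depletion ratio to healthy brain was 0.307 (0.279 to 0.338) with all barcodes and 15.2 (9.56 to 25.9) without granule-rich ones. The choice by Camp, Ltf and Ngp left 18 of its 1612 healthy UMIs and 581 of 584 in depletion. The second ratio thus depends on that choice and is not read as a result about Chil3. Cybb, the catalytic subunit of the phagocyte NADPH oxidase, had 46.2, 102, 87.0 and 992 CPM, but 95.1 CPM in the remaining healthy barcodes. It was then called lower only in IgG, at a ratio of 0.486 (0.125 to 1.37) from 4 against 32 UMIs. In the oxidase list of 6 genes, all tested, 1, 2 and 2 were lower and none was higher, and 2, 1 and 1 were lower without granule-rich barcodes. The shares of all genes lower were 13.2, 12.8 and 11.5%, and 16.5, 16.2 and 13.4% without those barcodes.

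Genes listed for later maturation were less divided. The 10 on the gelatinase and secretory granule list were Mmp9, Mmp25, Adam8, Slpi, Itgam, Lyz2, Fpr1, Fpr2, Cd63 and Arg2. Of these, 9 were tested and 4 (44.4%) were lower in each tumor library, with 1, 0 and 1 higher. The shares of all genes lower were 13.2, 12.8 and 11.5%. Slpi, an inhibitor of neutrophil proteases, had 612 CPM in IgG, 999.7 in anti-CTLA-4, 730 in depletion and 2999 in healthy brain. Adam8, a membrane metalloprotease, had 80.9, 33.9, 79.0 and 183 CPM. Without granule-rich barcodes 5, 4 and 6 genes of the list were lower, against 16.5, 16.2 and 13.4% of all genes. Cd63, a granule membrane tetraspanin, went against them, with 913, 381, 789 and 220 CPM, and was called higher in IgG and depletion. Stefin A genes, cathepsin inhibitors encoded by near-identical copies among which reads can be split uncertainly, were lower in 4 of 4 tested in IgG and in anti-CTLA-4 and in 2 of 4 in depletion. Of the 13 mature neutrophil genes, all tested, 3, 4 and 5 were lower and 1 was higher in each. Without granule-rich barcodes 5, 7 and 7 were lower. The list includes Retnlg, which the rule used and which was lower in each tumor library. These counts thus draw in part on the selection of the barcodes. The shares of all genes lower given above in this paragraph hold for the stefin A and mature genes too. The higher one was Il1r2, the decoy receptor that traps interleukin-1, at 1490, 1067, 1914 and 109 CPM. Slc2a3, the glucose transporter GLUT3, was among the lower ones, with 57.8, 67.8, 91.1 and 371 CPM.

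Type I interferon response genes were higher in IgG and anti-CTLA-4 neutrophils than in healthy ones, and less so with depletion. Of 24 genes on the list, 18, 22 and 15 were tested and 15, 21 and 8 were higher than in healthy brain in IgG, anti-CTLA-4 and depletion, with 0, 0 and 2 lower. These are 83.3, 95.5 and 53.3% of the genes tested, against 33.1, 31.6 and 37.2% of all genes. The list's median log2 ratio was 3.38 in IgG, 3.49 in anti-CTLA-4 and 1.05 in depletion. Without granule-rich barcodes it was 2.65, 2.78 and 0.30, and in depletion 6 of 16 tested (37.5%) were higher, close to the 35.9% of all genes. The summed level of the list was 10791 CPM in IgG (10110 to 11506), 13377 in anti-CTLA-4 (12725 to 14054), 3018 in depletion (2895 to 3145) and 1703 in healthy brain (1603 to 1808). B cell barcodes of the same libraries had 620, 1240, 1075 and 272 CPM, T cell barcodes 1501, 1518, 1741 and 890, and C1q barcodes 2493, 3022, 1729 and 314.

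Isg15, the ubiquitin-like protein that is joined to others after interferon, had 1421 CPM in IgG, 2686 in anti-CTLA-4, 512 in depletion and 94.8 in healthy brain. Its ratios to healthy brain were 15.0 (10.9 to 20.8), 28.3 (21.4 to 38.0) and 5.40 (4.10 to 7.21). It was seen in 39.4% of IgG, 78.0% of anti-CTLA-4, 33.8% of depletion and 19.7% of healthy neutrophils, and in IgG a single barcode gave 51.2% of its UMIs. Ifit3, which belongs to the tetratricopeptide proteins that restrain viral RNA, had 647, 695, 79.0 and 14.2 CPM, with 64.3% of the IgG UMIs in 1 barcode. Ifit2 of the same family had 370, 356, 24.1 and 4.74 CPM, with 78.1% in 1 IgG barcode. A single barcode also gave 33.7% of the whole list in IgG, so IgG levels of this list rest on few cells. In anti-CTLA-4 the leading barcode gave 10.4%. Per barcode the median share of UMIs from the list was 0.443% in IgG, 0.948% in anti-CTLA-4, 0.137% in depletion and 0.129% in healthy brain. In barcodes thinned to 1000 UMIs, with 2, 0, 30 and 6 shallower ones left out, it averaged 10.9, 15.1, 3.57 and 2.63 UMIs. By the median barcode, depletion and healthy neutrophils lay close together and anti-CTLA-4 neutrophils stood highest.

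Most of the interferon-gamma genes tested were also higher in tumor neutrophils. Of 24 genes on this list, 12, 14 and 12 were tested. Of these, 11, 14 and 10 were higher in IgG, anti-CTLA-4 and depletion than in healthy brain, with none lower. The shares of all genes higher were 33.1, 31.6 and 37.2%. The median log2 ratio was 2.95, 3.69 and 1.96, and 2.54, 3.40 and 1.39 without granule-rich barcodes. Gbp2, a guanylate-binding protein that attacks membranes around pathogens, had 1051 CPM in IgG, 1889 in anti-CTLA-4, 145 in depletion and 26.9 in healthy brain. Igtp, an immunity-related GTPase also called Irgm3, had 393, 652, 69.6 and 14.2 CPM. Gbp5, which promotes inflammasome assembly, had 173, 313, 26.8 and 0 CPM. Each of these genes had its top level in anti-CTLA-4, followed by IgG, depletion and healthy brain. In the list sum, C1q barcodes had 5959, 7943, 2864 and 2199 CPM and T cell barcodes 4199, 4331, 3655 and 1907, against 7417, 10471, 2369 and 856 CPM in neutrophils.

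Promoters of 3 of these genes are shown because interferon response elements are the known link between interferon receptors and both lists. Each line is the 250 bases before the RefSeq start (GRCm38.p6) of Isg15 (chr4:156200819-156201068, minus strand), Ifit3 (chr19:34583279-34583528, plus strand) or Igtp (chr11:58199306-58199555, plus strand), and capitals mark matches to GAAANNGAAA or its reverse TTTCNNTTTC.
Isg15: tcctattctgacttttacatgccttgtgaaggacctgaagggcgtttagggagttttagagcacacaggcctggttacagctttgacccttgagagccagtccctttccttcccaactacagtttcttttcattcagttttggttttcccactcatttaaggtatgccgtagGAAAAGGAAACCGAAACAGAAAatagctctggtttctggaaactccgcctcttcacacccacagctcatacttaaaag
Ifit3: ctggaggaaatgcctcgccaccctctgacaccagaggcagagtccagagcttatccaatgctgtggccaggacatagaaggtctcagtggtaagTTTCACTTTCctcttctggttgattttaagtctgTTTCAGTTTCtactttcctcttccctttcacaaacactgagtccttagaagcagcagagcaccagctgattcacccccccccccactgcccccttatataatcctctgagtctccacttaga
Igtp: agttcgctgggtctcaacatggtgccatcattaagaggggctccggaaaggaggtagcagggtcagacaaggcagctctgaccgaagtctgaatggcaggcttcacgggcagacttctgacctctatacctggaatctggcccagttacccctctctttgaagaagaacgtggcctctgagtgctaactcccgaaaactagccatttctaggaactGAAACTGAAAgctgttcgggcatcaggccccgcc
Isg15 held 3 overlapping matches, Ifit3 held 2 and Igtp held 1. The element was found in 8 of 19 type I interferon genes with a window (42.1%), 9 of 18 interferon-gamma genes (50%) and 3 of 12 MHC class I genes (25%), against 821 of 27025 windows of all genes (3.04%). None of the 10 secondary granule windows held it. A window without a match says only that these letters are not in those 250 bases.

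**Figure D2:**
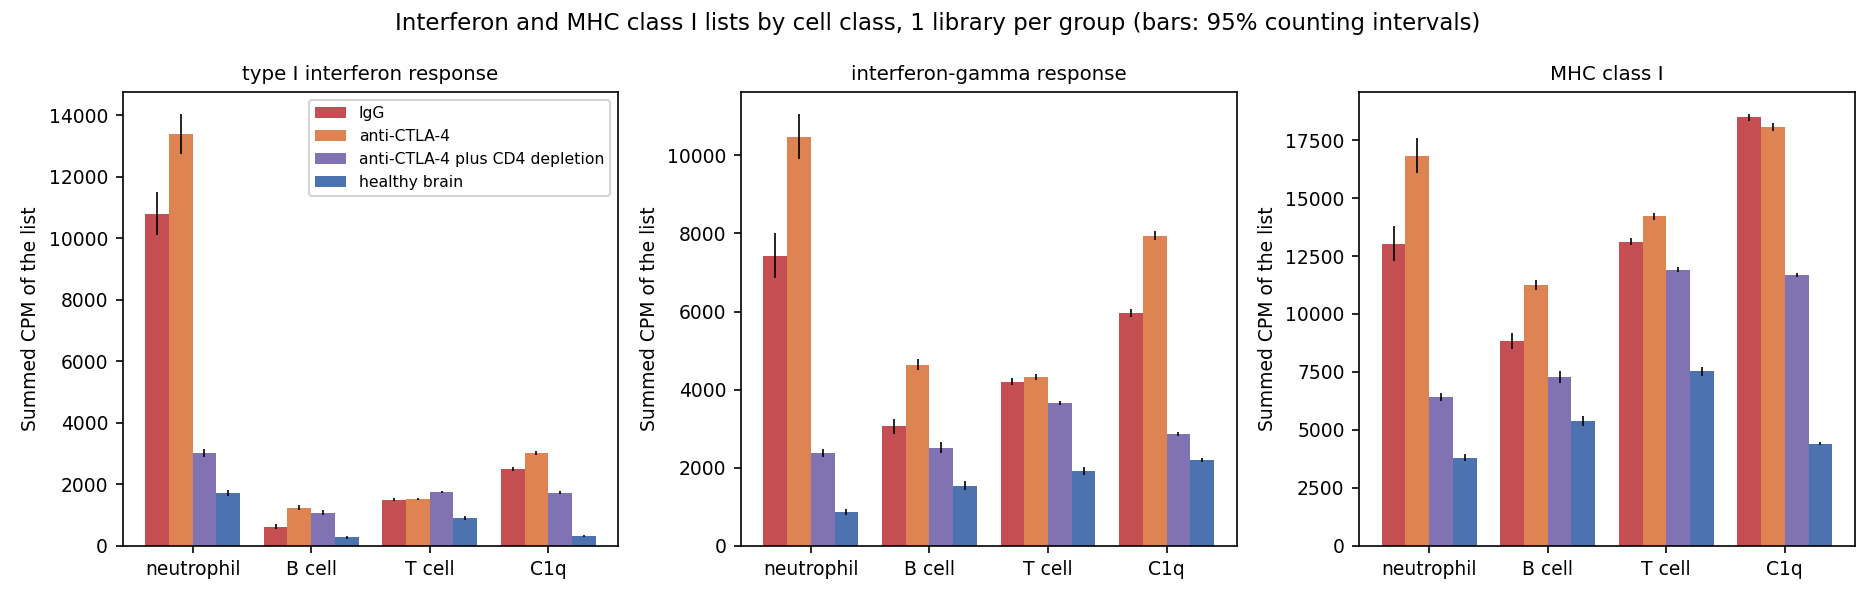
Bars give the summed CPM of the type I interferon, interferon-gamma and MHC class I lists in neutrophil, B cell, T cell and C1q barcodes of the 4 libraries, with 95% counting intervals. For type I interferon genes the IgG and anti-CTLA-4 neutrophil bars, at 10791 and 13377 CPM, stand above every other class, and in all 3 lists neutrophils are lower with depletion than with IgG or anti-CTLA-4.

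MHC class I genes, whose products show peptides to CD8 T cells, summed to 13032 CPM in IgG, 16817 in anti-CTLA-4, 6409 in depletion and 3790 in healthy brain. Single genes did not all follow this order, since Tapbp was higher in IgG (693 CPM) than in anti-CTLA-4 (593), and H2-T23 and Tap2 were about as low in depletion (191 and 64.3) as in healthy brain (199 and 66.4). Of 13 listed, 9, 12 and 12 were tested and 8, 12 and 8 were higher than in healthy brain, with none lower. The shares of all genes higher were 33.1, 31.6 and 37.2%. The list medians were 2.32, 2.93 and 1.44. H2-K1, a classical class I heavy chain, had 2565 CPM in IgG, 2703 in anti-CTLA-4, 1065 in depletion and 297 in healthy brain. The nonclassical H2-Q7 had 254, 534, 100.4 and 0 CPM, and Psme2, a subunit of the proteasome activator, had 601, 822, 242 and 82.2 CPM. MHC class II was different, because in anti-CTLA-4 and depletion few barcodes gave most of its UMIs. A Cd74 UMI was present in 33.3% of IgG, 31.7% of anti-CTLA-4, 13.4% of depletion and 2.92% of healthy neutrophils. The 7 class II genes summed to 196, 6083, 2164 and 14.2 CPM, but 1 anti-CTLA-4 barcode gave 96.4% of its library's sum, and 6 depletion barcodes gave 92.5%. That anti-CTLA-4 barcode also held all 36 UMIs of Cd209a, a dendritic cell marker, in the neutrophils of its library. With 13935 UMIs it was the largest of them, and it enters every CPM value of that library. The dendritic cell and monocyte markers used next were Flt3, Xcr1, Clec9a, Cd209a, Ccr7, Ccr2, F13a1 and Vcan. Ly6c2, another monocyte marker, was not among them. It had 162 CPM in IgG and 585 in healthy brain, in 12.1 and 43.8% of neutrophils. Leaving out barcodes with 2 or more dendritic cell and monocyte marker UMIs left 104101 UMIs in 40 anti-CTLA-4 barcodes and 641613 in 287 depletion barcodes. Of 301 ratios of named genes, 276 then stayed within their main interval, 23 moved and 2 reversed.

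**Figure D3:**
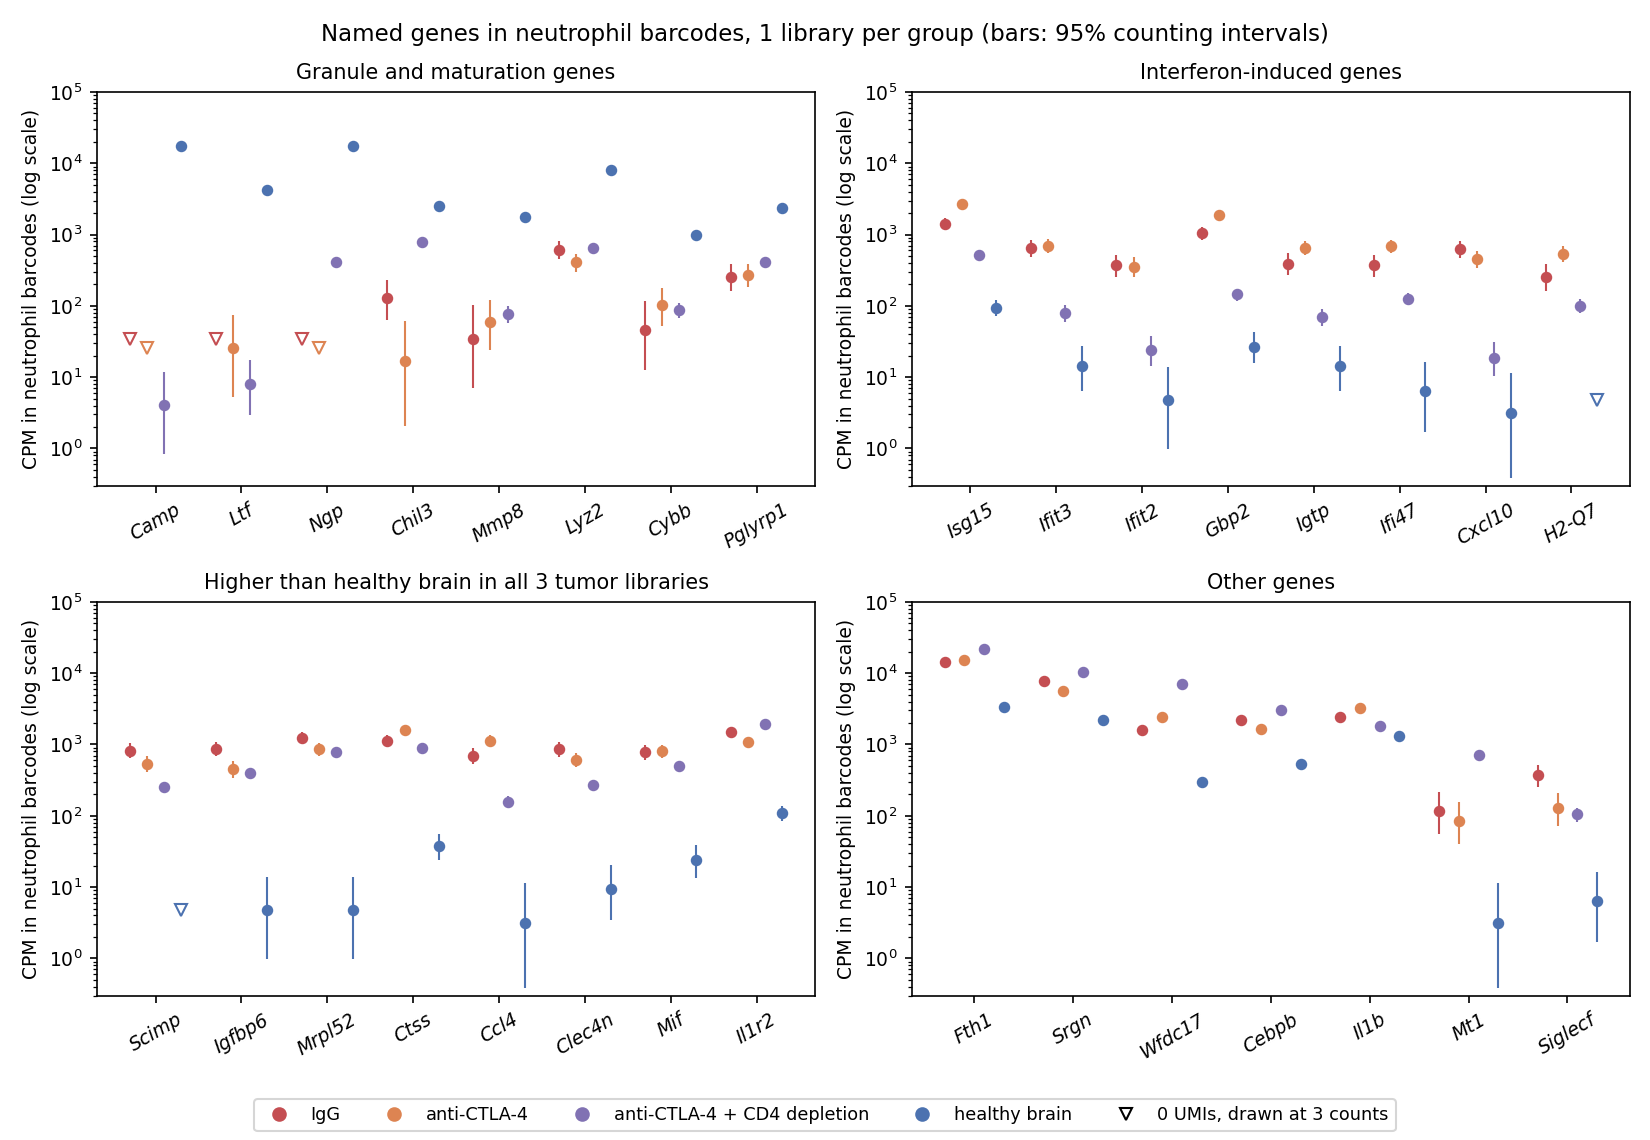
Points give CPM on a log scale in neutrophil barcodes of IgG, anti-CTLA-4, depletion and healthy brain for 4 sets of genes, with 95% counting intervals, and open triangles mark 0 UMIs, drawn at 3 counts. Granule genes are highest in healthy brain, interferon genes are highest in IgG or anti-CTLA-4, and Fth1, Srgn, Wfdc17 and Mt1 are highest with depletion.

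Of 11 chemokine genes listed, 5 were tested in each comparison with healthy brain. Of these 5, 4 (80%) were higher and 1 was lower, against 33.1, 31.6 and 37.2% of all genes higher. The 5 were not the same throughout, since Cxcl10 was tested in IgG and anti-CTLA-4 only and Ccl5 in depletion only. Cxcl1 had 0 UMIs in all 4 libraries, and Ccl9, Cxcl3, Cxcl9 and Cxcl16 were tested in none of these comparisons. The median log2 ratio was 4.87 in IgG, 5.39 in anti-CTLA-4 and 4.74 in depletion. Ccl4, a chemokine that draws T cells and monocytes, had 693 CPM in IgG, 1135 in anti-CTLA-4, 158 in depletion and 3.16 in healthy brain. Ccl3, its neighbour in function, had 277, 330, 138 and 9.48 CPM. Cxcl2, a ligand of Cxcr2 that recruits more neutrophils, had 254, 1728, 1602 and 41.1 CPM. Cxcl10, which attracts Cxcr3-bearing T cells, had 624, 449, 18.7 and 3.16 CPM. Ccl5 had 0, 76.2, 268 and 4.74 CPM. The lower one was Ccl6, at 624, 415, 799 and 2307 CPM. A single barcode held a large share of several of these, namely 43.3% of IgG and 59.0% of anti-CTLA-4 Ccl4, 61.3% of anti-CTLA-4 Cxcl2, and 57.4% of IgG and 50.9% of anti-CTLA-4 Cxcl10. T cell barcodes held 308, 589, 136 and 3.82 CPM of Ccl4.

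Among cytokines and their antagonists, 4 of 5 tested were higher in IgG, 3 of 5 in anti-CTLA-4 and 1 of 6 in depletion than in healthy brain, of 12 listed. The depletion share of 16.7% lies under the 37.2% of all genes, and the all-gene shares higher in IgG and anti-CTLA-4 were 33.1 and 31.6%. Il1b, the secreted fever cytokine, had 2438 CPM in IgG, 3211 in anti-CTLA-4, 1818 in depletion and 1318 in healthy brain. Its ratio passed 2 only in anti-CTLA-4, at 2.44 (2.15 to 2.75), and was 1.30 there without granule-rich barcodes. Il1rn, the antagonist that blocks the interleukin-1 receptor, had 647, 703, 233 and 139 CPM and was called higher in IgG and anti-CTLA-4, with ratios of 4.65 (3.27 to 6.58) and 5.06 (3.70 to 6.91). Il1r2, given above, was higher in all 3.

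A list of 17 genes known from tumor neutrophils of mice was tested only in part. Of these, 7, 7 and 8 were tested and 6, 6 and 7 were higher than in healthy brain, with none lower. The shares of all genes higher were 33.1, 31.6 and 37.2%. Without granule-rich barcodes 5, 5 and 7 were higher, against 26.3, 24.7 and 35.9% of all genes. Wfdc17, a secreted protein of the whey acidic protein family, had 1594 CPM in IgG, 2457 in anti-CTLA-4, 7073 in depletion and 295 in healthy brain, where 1 barcode gave 42.2%. Clec4n, the fungal lectin receptor Dectin-2, had 855, 610, 269 and 9.48 CPM. Siglecf, a sialic acid lectin of eosinophils and of some tumor neutrophils, had 370, 127, 104 and 6.32 CPM. The eosinophil granule genes Prg2 and Epx had 0 UMIs in the neutrophil barcodes of all 4 libraries. Cd14, the co-receptor for bacterial endotoxin, had 57.8, 237, 415 and 14.2 CPM, and Arg1, arginase of suppressive myeloid cells, had 11.6, 0, 88.4 and 0 CPM. Cd274, the PD-L1 gene, had 173, 347, 57.6 and 15.8 CPM. Within this list Wfdc17 and Cd14 were thus highest with depletion and Clec4n and Siglecf in IgG.

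Survival genes were largely higher, with 5 of 7 tested in IgG, 9 of 11 in anti-CTLA-4 and 9 of 13 in depletion, of 14 listed, and 1 lower in IgG. These are 71.4, 81.8 and 69.2% higher, against 33.1, 31.6 and 37.2% of all genes. Without granule-rich barcodes 3 of 6, 6 of 9 and 8 of 12 were higher, against 26.3, 24.7 and 35.9% of all genes. Mcl1, the short-lived protein that keeps neutrophils alive, had 1964 CPM in IgG, 2076 in anti-CTLA-4, 2252 in depletion and 972 in healthy brain. Its ratios lie under the 4.18, 3.57 and 3.18 that stay at 2 under both other scalings, so its calls depend on the scaling. Pim1, a survival kinase, had 1282, 1423, 998 and 191 CPM. Bcl2a1b, 1 of several near-identical copies whose counts are uncertain, had 231, 246, 340 and 0 CPM. The medians of this list were 1.41, 1.84 and 1.79, and 0.68, 1.51 and 1.40 without granule-rich barcodes.

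For iron and stress genes, 3, 3 and 4 were higher and 1 was lower in each comparison, out of 7, 7 and 8 tested of 10, so 42.9, 42.9 and 50% were higher, somewhat above the 33.1, 31.6 and 37.2% of all genes. Without granule-rich barcodes 14.3, 14.3 and 37.5% were higher, against 26.3, 24.7 and 35.9% of all genes. Fth1, the ferritin heavy chain, had 14315 CPM in IgG, 15512 in anti-CTLA-4, 22097 in depletion and 3348 in healthy brain. Srgn, the proteoglycan core that packs granule proteases, had 7787, 5719, 10497 and 2196 CPM. In the remaining 111 healthy barcodes Fth1 had 5413 and Srgn 4051 CPM, and the Srgn ratio then passed 2 only in depletion, at 2.58 (2.44 to 2.74). Mt1, the zinc-binding metallothionein, had 116, 84.7, 708 and 3.16 CPM. Slc40a1, the iron exporter ferroportin, was the lower one, with 104, 127, 91.1 and 348 CPM. Of 24 hypoxia and glycolysis genes, 12, 15 and 16 were tested, 5, 8 and 5 were higher and 1, 1 and 2 lower. The shares higher, 41.7, 53.3 and 31.2%, lie near the all-gene shares in IgG and depletion and above that of 31.6% in anti-CTLA-4. Mif, a cytokine stored in many cells, had 774, 805, 493 and 23.7 CPM. Slc2a1, the glucose transporter GLUT1, had 185, 203, 125 and 12.6 CPM, opposite to Slc2a3. Hif1a, the oxygen-regulated factor, had 173, 136, 179 and 25.3 CPM.

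**Figure D4:**
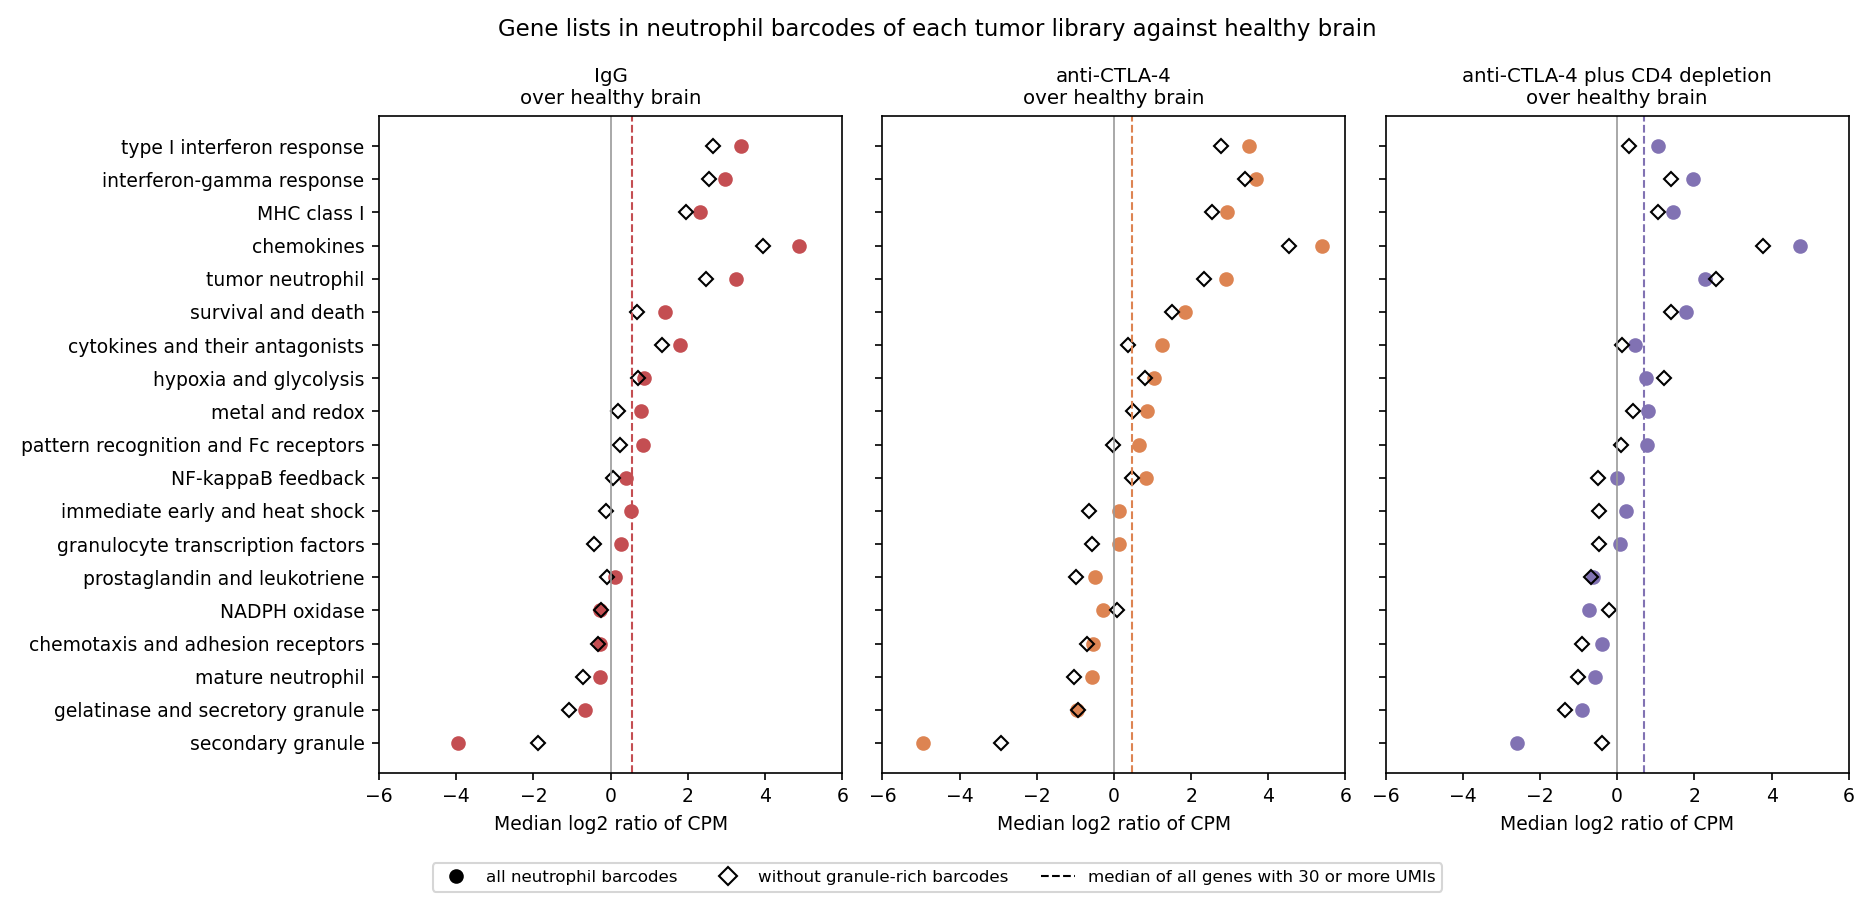
Filled circles give the median log2 CPM ratio to healthy brain of 19 gene lists in IgG, anti-CTLA-4 and depletion neutrophils, diamonds the same without granule-rich barcodes, and dashed lines the median of all genes with 30 or more UMIs (0.55, 0.46 and 0.69). Chemokine, interferon and tumor neutrophil lists lie to the right in all panels except that the type I list is near 0 with depletion once granule-rich barcodes are left out, and the secondary granule list lies farthest left in IgG and anti-CTLA-4.

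Receptors for migration were seldom higher in tumor neutrophils. Of 18 listed, 15, 15 and 16 were tested, 2, 2 and 1 were higher and 2, 1 and 4 lower than in healthy brain. The shares higher were 13.3, 13.3 and 6.25%, under the 33.1, 31.6 and 37.2% of all genes. Without granule-rich barcodes 0, 0 and 1 were higher and 4, 4 and 6 lower, and those lower were 26.7, 26.7 and 37.5% of the genes tested against 16.5, 16.2 and 13.4% of all genes. Ptafr, the receptor of platelet-activating factor, had 589 CPM in IgG, 661 in anti-CTLA-4, 181 in depletion and 231 in healthy brain. Ccrl2, which presents the chemoattractant chemerin, had 231, 186, 241 and 3.16 CPM, and Icam1 had 92.4, 169, 30.8 and 1.58 CPM. Of 17 pattern recognition and Fc receptor genes in the files, 5, 7 and 5 were higher and 2, 2 and 4 lower, of 14, 15 and 16 tested. With 35.7, 46.7 and 31.2% higher, this list lay near the all-gene shares in IgG and depletion. Without granule-rich barcodes 3, 3 and 4 of its genes were higher and 5, 2 and 5 lower. The shares of all genes were then 26.3, 24.7 and 35.9% higher and 16.5, 16.2 and 13.4% lower. Trem1, which amplifies inflammatory signals, had 289, 178, 513 and 74.3 CPM. Fcgr2b, the inhibitory Fc receptor, had 104, 84.7, 150 and 17.4 CPM. Nlrp12, a dampener of inflammation, had 80.9, 16.9, 45.5 and 93.2 CPM.

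In the NF-kappaB feedback list 2 of 7, 3 of 8 and 3 of 8 tested were higher, with 1 lower in depletion, of 12 listed. The 28.6, 37.5 and 37.5% higher lie near the 33.1, 31.6 and 37.2% of all genes. Nfkbia, which encodes the inhibitor IkB-alpha, had 647 CPM in IgG, 915 in anti-CTLA-4, 811 in depletion and 136 in healthy brain, and Ier3, an early stress gene, had 635, 635, 775 and 74.3 CPM. Of 16 immediate early and heat shock genes, 10, 10 and 11 were tested, 3, 4 and 4 were higher and 1 was lower in each. Without granule-rich barcodes 3 in each were higher and 3, 2 and 2 lower. The shares of all genes were then 26.3, 24.7 and 35.9% higher and 16.5, 16.2 and 13.4% lower. With all barcodes, the 30, 40 and 36.4% higher are also near the shares of all genes. Jun had 659, 390, 275 and 47.4 CPM, whereas Fos, its partner in the factor AP-1, was the lower one with 104, 144, 179 and 491 CPM. Ltc4s, the synthase of leukotriene C4, had 439, 50.8, 236 and 6.32 CPM, and Lta4h, the hydrolase that makes leukotriene B4, had 0, 0, 33.5 and 118 CPM. Of the 8 genes on the prostaglandin and leukotriene list, 3, 1 and 2 were higher and 1 lower in each, out of 7, 5 and 6 tested. Among 12 transcription factors in the files, 8 were tested in each comparison, with 1, 2 and 2 higher and 2, 1 and 1 lower. At most 25% of the transcription factors tested were higher in a comparison, and 42.9, 20 and 33.3% of the prostaglandin and leukotriene genes.

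The gene with the largest shared difference upward was Mrpl52, a protein of the large subunit of the mitochondrial ribosome. It had 1236 CPM in IgG, 856 in anti-CTLA-4, 779 in depletion and 4.74 in healthy brain, where the neutrophils held 3 UMIs. B cell barcodes held 302, 322, 355 and 320 CPM of Mrpl52 and T cell barcodes 371, 412, 339 and 217 CPM, so the low value was seen in healthy neutrophils and not in those classes. Scimp, an adaptor that couples receptors to Src kinases, had 820, 534, 256 and 0 CPM, at least 173-fold, 113-fold and 54.0-fold higher against 3 counts. Igfbp6, which binds insulin-like growth factor 2, had 878, 449, 399 and 4.74 CPM, and at most 3.28 CPM in B and T cell barcodes. Ctss, the lysosomal protease cathepsin S, had 1132, 1584, 901 and 37.9 CPM, against 6337 to 9762 CPM in C1q barcodes of the 4 libraries. Others in this set were Krtcap2, a subunit of the oligosaccharyltransferase, with 358, 280, 190 and 7.90 CPM, and the immunity-related GTPase Ifi47, with 370, 686, 126 and 6.32 CPM. Tgm2, a transglutaminase that crosslinks proteins, had 763, 246, 204 and 15.8 CPM. All of these kept a ratio above 2 without granule-rich barcodes, where the Mrpl52 ratios were 139, 96.0 and 91.5.

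Among the genes lower in all 3 tumor libraries, Bmx, a Tec-family kinase, had 0 CPM in IgG, 8.47 in anti-CTLA-4, 8.03 in depletion and 145 in healthy brain. Rnf144a, a ubiquitin ligase, had 23.1, 16.9, 13.4 and 218 CPM. Both stayed lower in all 3 without granule-rich barcodes. Serpinb1a, which protects neutrophils from their own proteases, had 0, 0, 10.7 and 235 CPM, and Itgb2l, an integrin beta chain of granulocytes, had 11.6, 0, 6.70 and 204 CPM. Adpgk, an ADP-dependent glucokinase, had 23.1, 8.47, 14.7 and 487 CPM, and Mgst2, a glutathione transferase, had 0, 0, 6.70 and 145 CPM. With 13, 12, 28 and 12 UMIs left in the other healthy barcodes, Serpinb1a, Itgb2l, Adpgk and Mgst2 could no longer be tested. Ly6g, the antigen commonly used to sort mouse neutrophils, had 0, 25.4, 73.6 and 575 CPM, and 155 CPM in the healthy barcodes that were not granule-rich.

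Anti-CTLA-4 and IgG neutrophils differed in few genes at this depth. Of 1128 genes tested, 47 (4.17%) were higher and 47 (4.17%) lower with anti-CTLA-4. None of the 20 type I interferon genes tested, of 24, was called, and the list's median log2 ratio was 0.19. None of 15 interferon-gamma genes was called either, with a median of 0.43, and 1 of 13 MHC class I genes was higher. Upp1, uridine phosphorylase, had 576 CPM with anti-CTLA-4 and 80.9 with IgG, a ratio of 7.12 (3.28 to 18.4). Ly6a, the interferon-inducible surface protein Sca-1, had 661 CPM with anti-CTLA-4 and 57.8 with IgG, with 38.5% of the anti-CTLA-4 UMIs in 1 barcode. H2-Aa and Cd74 also led, through the single barcode with Cd209a, and Cxcl2 through the barcode that held 61.3%. In the other direction, Ltc4s had 50.8 CPM with anti-CTLA-4 and 439 with IgG, a ratio of 0.116 (0.0400 to 0.276). Ptgs2, cyclooxygenase-2, had 59.3 and 427 CPM, and 70.3% of its IgG UMIs were in 1 barcode. Cd164, a sialomucin of the cell surface, had 136 CPM with anti-CTLA-4 and 601 with IgG, a ratio of 0.226 (0.120 to 0.401). Rara, the retinoic acid receptor alpha, had 76.2 CPM with anti-CTLA-4 and 243 with IgG.

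Depletion and anti-CTLA-4 neutrophils differed more. Of 3234 genes tested, 376 (11.6%) were higher and 321 (9.93%) lower with depletion. Of the 22 type I interferon genes tested, 21 were lower and none higher, with a median log2 ratio of -2.25, against 0.03 for all genes with at least 30 UMIs. Isg15 had 512 CPM with depletion and 2686 with anti-CTLA-4, a ratio of 0.190 (0.164 to 0.222), and Ifit3b, a close copy of Ifit3, had 12.1 and 271 CPM. Of 15 interferon-gamma genes tested, 13 were lower, with a median of -2.18, and Gbp2 had 145 CPM with depletion and 1889 with anti-CTLA-4. Of 13 MHC class I genes, 12 were lower, with a median of -1.76. The type I list summed to 3018 CPM with depletion and 13377 with anti-CTLA-4 in neutrophils, to 1075 and 1240 CPM in B cell barcodes, 1741 and 1518 in T cell barcodes and 1729 and 3022 in C1q barcodes. Cxcl10 had 18.7 CPM with depletion and 449 with anti-CTLA-4.

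Most secondary granule genes tested went the other way. Of 9 tested, 7 were higher with depletion, against 11.6% of all genes. Their median log2 ratio was 2.89, and 2.26 without granule-rich barcodes. Camp, Ltf and Padi4 had too few UMIs to be tested. Camp had 3 UMIs with depletion and 0 with anti-CTLA-4, Ltf had 8.03 and 25.4 CPM, and Padi4 had 10.7 and 16.9 CPM. Ngp had 415 CPM with depletion and 0 with anti-CTLA-4, at least 16.3-fold higher against 3 counts, and Chil3 had 782 and 16.9 CPM. Lcn2, the siderophore-binding lipocalin, had 1750 CPM with depletion and 220 with anti-CTLA-4. Retnlg, which the rule used, had 6259 and 1432 CPM. Mt1 had 708 CPM with depletion and 84.7 with anti-CTLA-4, a ratio of 8.36 (4.51 to 17.5). Klhl6, a ubiquitin ligase adaptor of blood cells, had 408 and 16.9 CPM, Rgs1, a brake on G-protein signals, had 146 and 0 CPM, and the linker histone gene H1f0 had 115 and 0 CPM. Ccl5, a chemokine of T and NK cells, had 268 CPM with depletion and 76.2 with anti-CTLA-4, with 37.0% of the depletion UMIs in 1 barcode. The NK marker list stood at 89.7 CPM in depletion and 42.4 in anti-CTLA-4 neutrophils, and its part in the Ccl5 value was not tested.

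Within the depletion library, neutrophils were a mixture by these genes. Of 299 barcodes, 77 (25.8%) had 5 or more UMIs of Retnlg together with 5 or more of Wfdc17, against 3 of 33 in IgG, 2 of 41 in anti-CTLA-4 and 7 of 137 in healthy brain. These 77 had 195664 CPM of S100a8 and S100a9, 3864 of Cxcl2, 0 of Siglecf and 31.1 of Ltc4s. The 149 barcodes with fewer than 5 of each had 50292 CPM of S100a8 and S100a9, 848 of Cxcl2, 157 of Siglecf and 366 of Ltc4s. The medians of UMIs per barcode were 2228 and 1946. Mt1 had 794 CPM in the 77 barcodes and 809 in the 149, against 364 in the 54 with Wfdc17 alone at 5 or more and 763 in the 19 with Retnlg alone. The cells were grouped by 2 of their own genes, so the contrast is a description of 1 library.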

How the data were processed

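The deposited 10x matrices hold raw UMI counts, 1 value for each gene in each barcode, made with Cell Ranger 3.1.0 per the file headers and with the mm10 build per the submitters' processing notes. No cell annotation was used. Neutrophil barcodes were taken by the marker rule, summed per library and scaled to CPM with Python 3.11.15, numpy 2.4.6, scipy 1.17.1 and pandas 2.3.3. Sums have exact Poisson intervals, shares exact Clopper-Pearson intervals and ratios exact conditional binomial intervals, all at 95% and for counting error only. Where a library had 0 UMIs of a gene, the ratio used 3 counts in their place.

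The members and gene lists were chosen with earlier results of these data known. Genes were named by rule: the 5 marker genes, the first 12 in each direction shared by all 3 comparisons with healthy brain and the first 5 in each direction of each of the 5 comparisons, both by log2 ratio of CPM plus 5, and the leading or opposed members of each list. Csf1r, Apoe, Cd209a, Prg2, Epx, Xist and Ddx3y are markers; Mki67, Top2a, Ube2c, Mpo, Elane, Ctsg, H2-K1, Ccl6, Arg1, Cd274, Mcl1 and Lcn2 were named outside this rule after their values were seen. B cell and T cell barcodes had at least 3 UMIs of the Cd79 or Cd3 genes, and C1q barcodes at least 10 of the C1q genes. Doublets were marked with Scrublet in scanpy 1.11.5 in an alternative only: it marked 0, 3, 6 and 0 neutrophil barcodes in the IgG, anti-CTLA-4, depletion and healthy libraries, and found its own threshold only in the IgG and healthy ones. The procedure was tested on simulated data. Promoter sequences came from RefSeq. Alternatives changed the depth, scaling, membership limits, size limits and doublets. Some items are not reported here.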

Additional observations from a re-analysis of the deposited data

How the results depend on the processing

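No paired analysis was possible because each group has 1 library, and for the same reason no replicate could be left out. Of 150 counts of genes under the alternatives, 107 stayed within 1.5 times the main count. Of 1263 list medians 4 reversed, and of 3602 ratios of named genes 13 did. The cause was not tested. Pairs below give genes higher, then lower. Thinned to 1000 UMIs, they were 171 and 124 for IgG over healthy brain, 185 and 139 for anti-CTLA-4, 550 and 222 for depletion, 27 and 14 for anti-CTLA-4 over IgG and 208 and 175 for depletion over anti-CTLA-4, and the log2 ratio of Chil3 in depletion over healthy brain was 0.13. With median-of-ratios size factors they were 207 and 872, 300 and 768, and 671 and 841 against healthy brain, with 80 higher in anti-CTLA-4 over IgG. With S100a8 and S100a9 out of the total they were 456 and 504 in IgG and 485 and 553 in anti-CTLA-4, with 651 lower in depletion. With at least 50 calprotectin UMIs, 20 IgG and 26 anti-CTLA-4 barcodes remained, and in depletion over anti-CTLA-4 the MHC class II median was 2.56, Cd74 2.56 and H2-Aa 2.47. Without C1q and Csf1r limits there were 50 IgG and 450 depletion barcodes, 1237 genes higher in IgG and 1943 in depletion than in healthy brain, 522 lower in depletion than in anti-CTLA-4, and a Ccl5 log2 ratio of -1.43 there. With 20 UMIs and no minimum share, 2158 genes were higher in depletion than in healthy brain, 89 and 104 in anti-CTLA-4 over IgG, and 670 higher in depletion over anti-CTLA-4. With 50 UMIs, 486 were higher in IgG and 498 in anti-CTLA-4 than in healthy brain, 25 and 17 in anti-CTLA-4 over IgG, and 196 lower in depletion over anti-CTLA-4. With a ratio of 1.5, 486, 524 and 650 were lower than in healthy brain in IgG, anti-CTLA-4 and depletion, with 154 and 152 in anti-CTLA-4 over IgG and 711 and 727 in depletion over anti-CTLA-4.

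Chosen after seeing the data, leaving out granule-rich barcodes gave 470 genes higher in IgG and 473 in anti-CTLA-4 than in healthy brain. The log2 ratio of Chil3 was then 1.25 in IgG and 3.93 in depletion, of Cybb 0.10 in anti-CTLA-4 and of Lta4h 1.5 in depletion, from 24 against 4 UMIs. Ltf gave 3.1 in anti-CTLA-4, from 3 against 1 UMIs, and 1.5 in depletion, from 6 against 1, and Ngp gave 0.90 in depletion, but both genes chose the barcodes left out, so these values are fixed by that choice. The proliferation median was 0.14 in anti-CTLA-4 and 0.74 in depletion. Leaving out barcodes with dendritic cell or monocyte markers, also chosen after seeing the data, gave 0.30 for the MHC class II median, 0.077 for Cd74 and 0.30 for H2-Aa in depletion over anti-CTLA-4. Depth limits the IgG and anti-CTLA-4 values most, with 33 and 41 barcodes.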
